A study of Homo sapiens with 6 samples.

Results

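The genes described are those that encode the proteins of the cytosolic ribosome, chosen by name: rows whose Ensembl identifier maps to a protein-coding symbol made of RPL or RPS and a number, together with RPLP0, RPLP1, RPLP2 and RPSA, leaving out the kinases whose symbols begin with RPS6K and leaving out RPS4Y. The rule found 89 of the 60564 rows that carry a gene identifier. These were 46 genes of the large subunit, 31 of the small subunit, 8 paralogues, which are second copies of a ribosomal protein gene, and 4 further rows. The 4 were the readthrough genes RPL17-C18orf32, RPL36A-HNRNPH2 and RPS10-NUDT3 and the gene RPS19BP1, whose product binds a ribosomal protein.

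The study sequenced RNA from HepG2, an established cell line derived from a human liver tumour, grown in DMEM with fetal calf serum and labelled wild type. There were 3 libraries of cells given formononetin, a plant isoflavone, at a labelled dose of 625 μm for 72 h, and 3 libraries of control cells whose treatment label reads DMEM. The labels name no vehicle and no time for the controls, and nothing in them ties the 3 libraries of a group to separate cultures. The spread behind each p-value is therefore that of these libraries and may be technical.

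A ribosome has a large subunit, which joins amino acids, and a small subunit, which reads the mRNA, and each is built from ribosomal RNA and a set of proteins needed in near-equal numbers. Most of their mRNAs start with a C followed by a run of pyrimidines, the 5′ terminal oligopyrimidine (TOP) tract, through which mTOR and LARP1 set how strongly they are translated and how stable they are. Liver cells make ribosomes in large amounts for their secreted proteins, and free RPL5 and RPL11 bind the ubiquitin ligase MDM2.

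Each library held between 37465148 and 45682722 gene-assigned counts with formononetin and between 30848848 and 36243606 in controls. The 12 hepatocyte and HepG2 markers were all detected, and their summed level, in CPM (counts per 1e+06 counts) scaled by TMM, a correction for differences in RNA composition, was 41840 to 43120 with formononetin and 51530 to 53070 in controls. The 7 fibroblast markers summed to 40.6 to 43.4 CPM with formononetin and 77.3 to 82.8 CPM in controls, with COL1A2, COL3A1, DCN and LUM at 0 in every library. The 4 endothelial markers summed to 24.0 to 28.2 CPM with formononetin and 22.1 to 25.6 in controls. The 5 blood cell markers summed to 5.68 to 8.23 CPM with formononetin and 2.92 to 4.19 CPM in controls, with CD3E, HBB and PTPRC at 0. The part of these differences in the results below was not tested. In bulk RNA, fewer cells of a type and less RNA per cell cannot be told apart.

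Most ribosomal protein transcripts were lower in formononetin-treated cells, by modest amounts. The 46 large subunit genes summed to 18038, 18361 and 18306 CPM in formononetin libraries and to 20856, 21887 and 20703 CPM in control libraries. Every formononetin library lay below every control library, and the means were 18235 ± 172.9 CPM with formononetin and 21149 ± 643.7 CPM in controls (SD, n = 3 each), a percent difference of -13.8. The 31 small subunit genes summed to 13845, 14017 and 14624 CPM with formononetin and to 15226, 15583 and 15485 CPM in controls. Again the groups did not overlap, with means of 14162 ± 409 CPM with formononetin and 15432 ± 184.3 CPM in controls (SD, n = 3 each) and a percent difference of -8.23. All 89 genes together held 3.30 to 3.33% of counts with formononetin and 3.58 to 3.74% in controls. The size of these differences moved with the scaling: with upper quartile scaling they were -18.4 and -13.1%, and with library totals -11.2 and -5.50%, for the large and the small subunit.

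**Figure D1:**
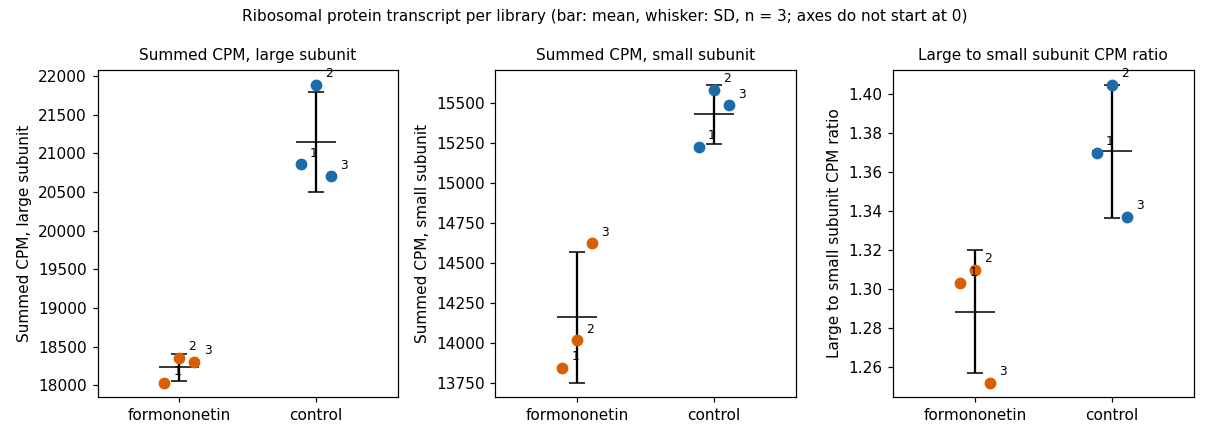
Summed CPM of the 46 large subunit genes (left), of the 31 small subunit genes (middle) and their ratio (right) in each library, with points numbered by replicate, the group mean as a horizontal bar and the SD as a whisker (n = 3). The formononetin libraries lie below all control libraries in each panel, and the axes do not start at 0.

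Each gene was tested with edgeR's quasi-likelihood test across all 22230 genes that passed a filter on low counts, with Benjamini-Hochberg adjustment, and called at an adjusted p below 0.05. Of the 46 large subunit genes, 28 fell, none rose and 18 were not called. Of the 31 small subunit genes, 14 fell, 2 rose and 15 were not called. Over all tested genes, 8.71% fell and 12.0% rose, which is the background for these counts. The formononetin libraries lay below all control libraries for 33 large and 18 small subunit genes, where 18.7% of all tested genes did so. They lay above for 3 small subunit genes and no large subunit gene, against 20.8% of all tested genes. The median log2 fold change, formononetin over control, was -0.23 for the large subunit and -0.16 for the small subunit, beside -0.01 for all tested genes.

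These genes are abundant. Of the 1372 other genes with a mean log2 CPM of at least 7, a level that 71 of the 77 subunit genes also reached, 23.1% fell and 27.7% rose, with a median log2 fold change of 0.02. Fewer members were called with 1 library left out. The same held over all tested genes, where 1272 to 1478 then fell, against 1937 with all 6 libraries. Without formononetin replicate 1, 17 large and 8 small subunit genes fell, and without control replicate 3, 17 large subunit genes fell. Without formononetin replicate 2, 9 small subunit genes fell, and without control replicate 2, 18 large subunit genes fell. No called subunit gene changed sign in any of 20 other analyses, and 23 of the 44 called subunit genes, 14 large and 9 small, were called in all of them. Among these 20, centring on the median gene shifts the fold changes and keeps the main p-values, so no call could be lost in it.

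**Figure D2:**
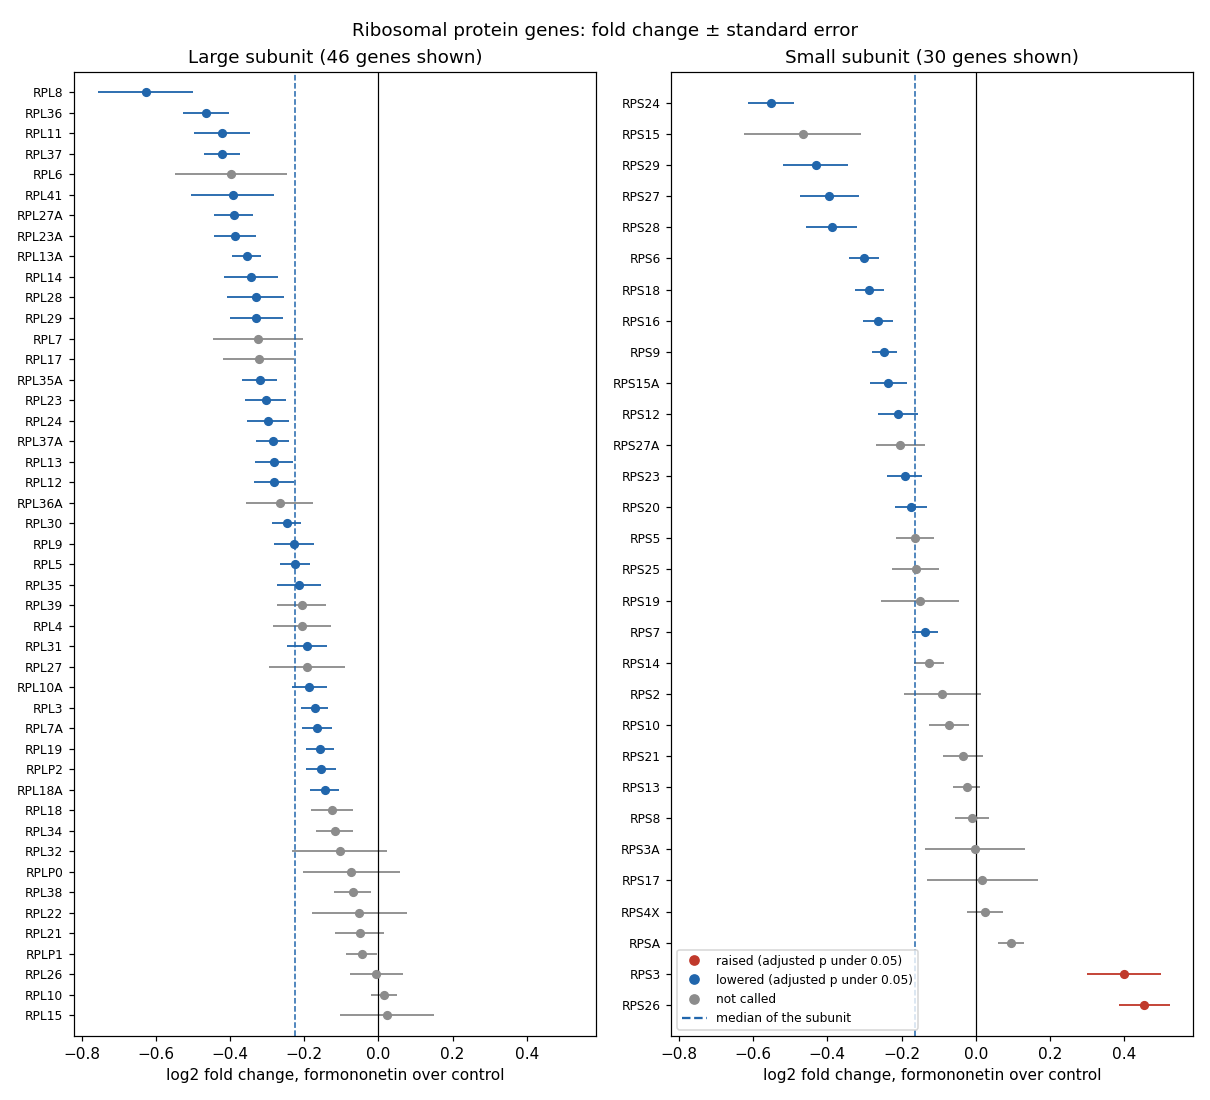
Log2 fold change, formononetin over control, with its standard error for large subunit genes (left) and small subunit genes (right, 30 shown), ordered by size, with the median over the whole subunit as a dashed line. All called large subunit genes lie below 0, and RPS3 and RPS26 are the called small subunit genes above 0.

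**Figure D3:**
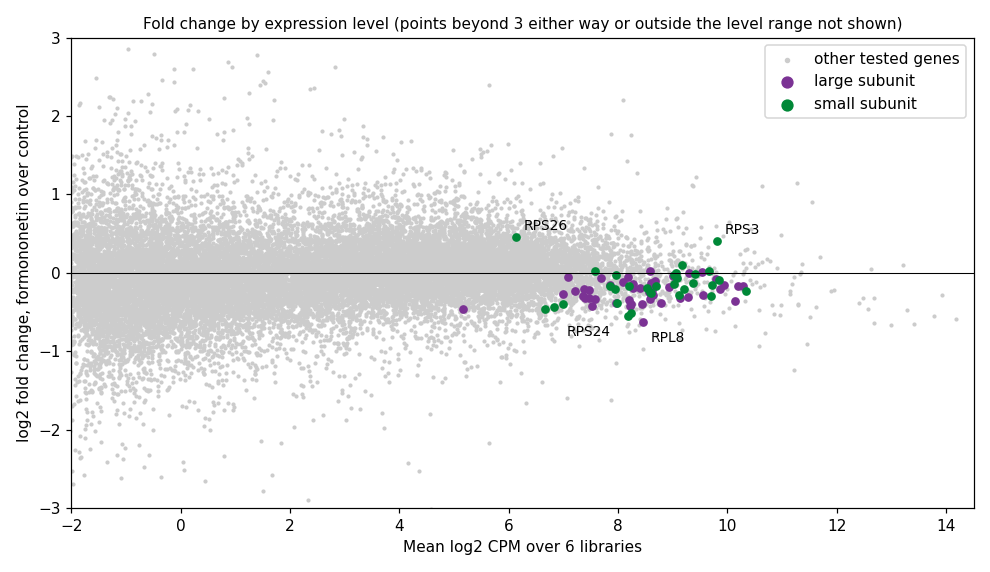
Log2 fold change, formononetin over control, against mean log2 CPM over the 6 libraries for all tested genes (grey), large subunit genes (purple) and small subunit genes (green). The ribosomal protein genes sit at high levels and mostly a little below 0, with RPS3 and RPS26 above.

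Start sites are shown for 7 genes, to let the TOP tract be seen beside the fold changes. Each line gives 30 bases, 15 before and 15 from the RefSeq start (GRCh38.p14), 5′ to 3′ on the gene's strand. Capitals mark a run that begins with a C within 2 bases of the start and goes on with at least 4 further C or T. RPS24, RPL36 and RPS6 fell and RPS3 rose, all with such a run. RPS26, which rose, and RPS29, which fell, have none in this window, and neither does the RPL6 window.
RPS24 (chr10:78033848-78033877, plus strand): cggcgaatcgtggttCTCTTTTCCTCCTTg
RPL36 (chr19:5690280-5690309, plus strand): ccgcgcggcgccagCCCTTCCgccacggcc
RPS6 (chr9:19380222-19380251, minus strand): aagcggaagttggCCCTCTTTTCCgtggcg
RPS3 (chr11:75399503-75399532, plus strand): gcccgcgagccacttCCTTTCCTTTCagcg
RPS26 (chr12:56041903-56041932, plus strand): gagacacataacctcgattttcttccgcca
RPS29 (chr14:49598696-49598725, minus strand): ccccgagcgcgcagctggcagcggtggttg
RPL6 (chr12:112409271-112409300, minus strand): ggggagacggcgcgtgcactgtgttcctgg

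Of the 77 subunit genes, 62 had a RefSeq window, and 50 of those (80.6%) held the run in at least 1 window, on the gene's strand only. The run was present in 10.5% of all 35116 RefSeq windows and in 15.4% of the 12143 other tested genes with a window. Among the subunit genes, the 50 with the run had a median log2 fold change of -0.20, with 28 lowered and 1 raised. The 12 without it had a median of -0.20, with 4 lowered and 1 raised. The medians of the genes with and without the run were alike. A larger share of the genes with it was lowered, a difference that was not tested, and 8.71% of all tested genes fell. The match is a description of the letters in these windows only.

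In the large subunit, RPL5 and RPL11, which with 5S ribosomal RNA form the particle that binds MDM2, both fell. RPL11 had 227.2, 256.3 and 277 CPM in formononetin libraries and 322.1, 349.8 and 347.3 CPM in control libraries. The groups did not overlap, and the log2 fold change was -0.42 ± 0.08 (SE, edgeR adjusted p = 0.00806). RPL5 had 362.3, 373.6 and 356.3 CPM with formononetin and 412.3, 438.2 and 426 CPM in controls. It was lower in each formononetin library than in every control library, with a log2 fold change of -0.23 ± 0.04 (SE, edgeR adjusted p = 0.00855). Exons of RPL5 overlap FAM69A on the opposite strand, and whether counting used strand is not given.

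The stalk, the flexible arm that recruits elongation factors, is made of RPLP0, RPLP1 and RPLP2. RPLP2 had 210, 221.4 and 223.6 CPM with formononetin and 245.5, 243.7 and 240.3 CPM in controls, with no overlap. Its log2 fold change of -0.16 ± 0.04 (SE) was called at an edgeR adjusted p of 0.0339, and the call was lost in 10 of the 20 other analyses, all 6 that leave out a library among them. RPLP0, which anchors the stalk, ranged from 802.5 to 972 CPM with formononetin and from 731.8 to 1022 CPM in controls. RPLP1 ranged from 487.8 to 528.6 CPM with formononetin and from 516.6 to 533.7 CPM in controls. Neither was called, with edgeR adjusted p-values of 0.752 and 0.515, and in both the groups overlapped.

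The 5 large subunit genes with the lowest fold changes were RPL8, RPL36, RPL11, RPL37 and RPL6. RPL8, a protein close to the peptidyl transferase centre, had 288.9, 253 and 287 CPM in formononetin libraries and 479.7, 462.6 and 338.6 CPM in control libraries. All formononetin values lay below all control values, but control replicate 3 was far below the other controls. The log2 fold change was -0.63 ± 0.13 (SE, edgeR adjusted p = 0.0142), and the call was lost without control replicate 2 and without formononetin replicate 2, where the highest adjusted p was 0.0519. RPL36 had 28.7, 30.5 and 31 CPM with formononetin and 42.6, 39.5 and 42.3 CPM in controls. The groups were well apart, with a log2 fold change of -0.46 ± 0.06 (SE, edgeR adjusted p = 0.00247). Exons of RPL36 overlap the gene HSD11B1L on the same strand, so reads there may be assigned to either, and the call was kept when overlapping genes were summed.

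RPL37, a small zinc-binding protein, had 153.2, 154.8 and 163.4 CPM with formononetin and 203.8, 220.2 and 207.1 CPM in controls, a log2 fold change of -0.42 ± 0.05 (SE, edgeR adjusted p = 0.00133). The groups did not overlap, and RPL37, RPL36, RPL11 and RPL5 were called in all 20 other analyses. RPL6 had 290.4, 373.4 and 232.5 CPM in formononetin libraries and 379.9, 408.4 and 391.7 CPM in control libraries. Its formononetin values were all lower but spread widely, and it was not called (log2 fold change -0.40 ± 0.15 SE, edgeR adjusted p = 0.111). RPL6 was called as lowered in 2 of the 20 other analyses, DESeq2 and the one without formononetin replicate 2.

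At the other end of the large subunit, RPL26, RPL10 and RPL15 had the 3 highest fold changes, and none was called. RPL10, which completes the peptidyl transferase centre late in assembly, had 744.6, 747.3 and 754.8 CPM with formononetin and 726.3, 758.1 and 740.9 CPM in controls. Its log2 fold change was 0.01 ± 0.04 (SE, edgeR adjusted p = 0.828), and the libraries of both groups lay within a narrow band. RPL15 ranged from 323.8 to 419.3 CPM with formononetin and from 327.3 to 429.1 CPM in controls. RPL26 ranged from 589.4 to 677 CPM with formononetin and from 575.8 to 658.6 CPM in controls. For these 2 genes the groups overlapped almost fully.

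RPL7A, the large subunit gene with the most counts, had 1192, 1149 and 1203 CPM in formononetin libraries and 1278, 1373 and 1324 CPM in control libraries. The groups did not overlap, with a log2 fold change of -0.17 ± 0.04 (SE, edgeR adjusted p = 0.0291), and 7 of the 20 other analyses did not call it. RPL39, which lines the exit tunnel of the nascent chain, had 140.2, 167.3 and 156.8 CPM with formononetin and 180.7, 179.9 and 175.2 CPM in controls. RPL36A had 103.6, 110.7 and 131.4 CPM with formononetin and 133.3, 146.3 and 135.9 CPM in controls. Both had non-overlapping groups and were not called, with edgeR adjusted p-values of 0.0665 and 0.0792. Each was called as lowered in 4 of the 20 other analyses.

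**Figure D4:**
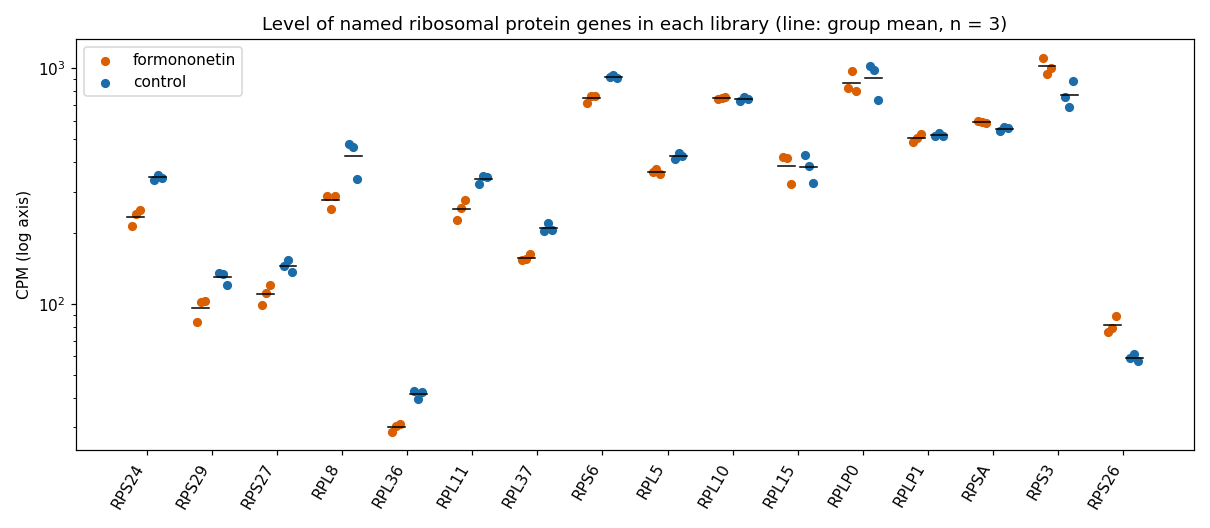
CPM on a log axis of 16 ribosomal protein genes in each formononetin library (orange) and control library (blue), with the group mean as a line (n = 3). RPS24, RPL36, RPL37 and RPS6 have formononetin values below all control values, RPL10 and RPLP1 overlap, and RPS3 and RPS26 have formononetin values above all control values.

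In the small subunit, RPS24 had the lowest fold change. RPS24, which is needed to process the precursor of 18S ribosomal RNA and is mutated in some cases of Diamond-Blackfan anaemia, had 215, 240 and 250.1 CPM with formononetin and 335.7, 354.4 and 343.5 CPM in controls. The formononetin libraries were all far below the controls, and the log2 fold change was -0.55 ± 0.06 (SE, edgeR adjusted p = 0.00116). It was called in all 20 other analyses.

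RPS27 and RPS29, small zinc-binding proteins, both fell. RPS29 had 84.1, 102.3 and 102.6 CPM in formononetin libraries and 135, 134 and 120.9 CPM in control libraries, a log2 fold change of -0.43 ± 0.09 (SE, edgeR adjusted p = 0.0136). RPS27 had 99.05, 111.5 and 120.7 CPM with formononetin and 145.1, 153.1 and 137.1 CPM in controls, a log2 fold change of -0.39 ± 0.08 (SE, edgeR adjusted p = 0.013). Neither gene's groups overlapped, and both were called in all 20 other analyses, though with adjusted p-values as high as 0.0496 and 0.0476. Exons of RPS29 overlap the pseudogene RPL32P29 on the same strand and LRR1 on the opposite strand.

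RPS6, the substrate of the S6 kinases, had 716.5, 764 and 764.9 CPM with formononetin and 922, 935.3 and 909.2 CPM in controls. All formononetin values were lower, with a log2 fold change of -0.30 ± 0.04 (SE, edgeR adjusted p = 0.00251), and the call was kept in all 20 other analyses. RPS15A, the small subunit gene with the most counts, had 1135, 1191 and 1235 CPM with formononetin and 1335, 1466 and 1392 CPM in controls. The groups did not overlap, and it fell by 0.24 on the log2 scale (SE 0.05, edgeR adjusted p = 0.0162), a call lost without control replicate 3 and without formononetin replicate 1 or 2. RPS15 had 83.2, 102.6 and 68.5 CPM with formononetin and 131.5, 99.1 and 120.6 CPM in controls. Its groups overlapped, and it was not called (log2 fold change -0.47 ± 0.16 SE, edgeR adjusted p = 0.0789). RPS15 was called as lowered in 3 of the 20 other analyses.

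RPS26 and RPS3 moved the other way. RPS26, which sits at the exit of the mRNA channel and contacts mRNA upstream of the start codon, had 76, 79.2 and 88.6 CPM with formononetin and 59, 61.6 and 57.3 CPM in controls. Every formononetin value was above every control value, the log2 fold change was 0.45 ± 0.07 (SE, edgeR adjusted p = 0.00413), and it was called in all 20 other analyses. RPS26 lies at chr12:56041351-56044697 on the plus strand (GRCh38, GENCODE 29) and has 36 rows named as its pseudogenes. Summing these with it left it raised (adjusted p = 0.00394).

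RPS3, which lies at the entry of the mRNA channel and also acts in DNA repair, had 1112, 947.6 and 1004 CPM in formononetin libraries and 753.4, 684.8 and 882.8 CPM in control libraries. The groups did not overlap, but control replicate 3 came near the lowest formononetin library. The log2 fold change was 0.40 ± 0.10 (SE, edgeR adjusted p = 0.0284). The call was lost under upper quartile scaling. It was also lost when control replicate 1, control replicate 2, formononetin replicate 1 or formononetin replicate 3 was left out, with an adjusted p of up to 0.0923. RPSA, a small subunit protein also known as the laminin receptor, had 597.8, 594.3 and 585.3 CPM with formononetin and 540.9, 563.1 and 560 CPM in controls. All formononetin values were higher, by a log2 fold change of 0.10 ± 0.04 (SE), and it was not called (edgeR adjusted p = 0.107).

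The ratio of large to small subunit CPM was 1.303, 1.31 and 1.252 in formononetin libraries and 1.37, 1.405 and 1.337 in control libraries. The groups did not overlap, and the means differed by -0.082. Without RPS3, the ratio was 1.417, 1.405 and 1.344 with formononetin and 1.441, 1.469 and 1.418 in controls. The highest formononetin ratio then almost met the lowest control ratio, the means differed by -0.054, and the small subunit sum differed by -10.4%. RPS3 was left out after its values were seen.

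Of the 8 paralogues, 6 passed the filter. RPL10L had no count in any library, and RPL39L had counts in control replicate 3 alone. A count of 0 allows up to 0.0662 to 0.0987 CPM, depending on the library and for counting error only. RPS27L, a close relative of RPS27, had 67.4, 72.5 and 71.1 CPM with formononetin and 81.9, 80.4 and 78.1 CPM in controls. It fell by 0.19 on the log2 scale (SE 0.05, edgeR adjusted p = 0.0357), with no overlap. The call was lost in 9 of the 20 other analyses: all 6 that leave out a library, library total scaling, no low-count filter and the replicate block. RPS27L made up 37.1 to 40.5% of the counts of RPS27 and RPS27L with formononetin and 34.4 to 36.3% in controls.

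The other 5 tested paralogues were not called. RPL22L1 had 9.35, 8.02 and 11.7 CPM with formononetin and 8.19, 7.94 and 7.55 CPM in controls, while RPL22, its more abundant relative, ranged from 123.3 to 139.7 CPM with formononetin and from 116.2 to 167 CPM in controls. RPL26L1 had 16, 16.7 and 17.2 CPM with formononetin and 14.7, 15.1 and 12.7 CPM in controls, with no overlap and an edgeR adjusted p of 0.124. RPL36AL ranged from 35.7 to 47.5 CPM with formononetin and from 40.5 to 45.3 CPM in controls, and RPL7L1 ranged from 147 to 190.7 CPM with formononetin and from 156.5 to 193.2 CPM in controls. RPL3L, the muscle form of RPL3, stayed near 1 CPM in both groups. Reads of near-identical copies may be split between them, so these levels are uncertain. None of the 4 rows of readthrough genes and RPS19BP1 was called.

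Levels can be set side by side between genes only per length, and the length used matters here. Per kilobase of the union of a gene's annotated exons, the median over large subunit genes was 94.3 CPM with formononetin and 114.3 CPM in controls, and over small subunit genes 136.4 CPM with formononetin and 140.2 CPM in controls. RPL36 was the lowest large subunit gene, at 13.2 CPM per kilobase with formononetin and 18.2 in controls, and RPL7A the highest, at 526.9 with formononetin and 591.1 in controls. RPS29 was the lowest small subunit gene, at 9.79 CPM per kilobase with formononetin and 13.2 in controls, and RPS12 the highest, at 711.7 with formononetin and 822.7 in controls. After these values were seen, and because rare long isoforms enter the union, levels were also computed with 2 other lengths, a principal transcript and the median of coding transcripts. With both of them RPS26 was the lowest small subunit gene, and RPL7A was again the highest large subunit gene. The highest small subunit gene was RPS21 with the principal transcript and RPS19 with the median of coding transcripts, and the lowest large subunit gene was RPL37 with the principal transcript and RPL36 with the median.

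Across the 77 genes, the relation of length to the fold change was weak and depended on the length and the coefficient used. Pearson's r between log2 fold change and length was -0.083 with the exon union, -0.096 with the principal transcript and 0.159 with the median coding transcript. In the small subunit it was -0.110, 0.251 and 0.342 in the same order, so the sign of Pearson's r depended on which length was taken. Spearman's rho, which uses ranks, was 0.003, 0.073 and 0.154 across the 77 genes in the same order. It was 0.052, 0.333 and 0.337 in the small subunit and 0.012, -0.099 and 0.055 in the large subunit. Against mean log2 CPM, r was 0.226 and rho 0.319 across the 77 genes, which share libraries and counting. Within the bounds of 28 of the 77 genes lie small nucleolar RNA genes. These 28 had a median log2 fold change of -0.19, with 16 lowered and 1 raised, and the 49 without had -0.21, with 26 lowered and 1 raised. The subunits differed in this. In the large subunit, the 19 hosts and the 27 others both had a median of -0.23, with 13 and 15 lowered. In the small subunit, the 9 hosts had -0.02, with 3 lowered and 1 raised. The 22 others had -0.20, with 11 lowered and 1 raised. The difference was not tested. The 42 genes whose exons overlap no other gene had a median of -0.21, with 26 lowered and 2 raised. The 35 whose exons do overlap another gene had a median of -0.20, with 16 lowered and 0 raised. This difference was not tested either.

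Genes linked to ribosomal proteins were taken from lists. RACK1, a scaffold protein that sits on the small subunit, fell. It had 454.2, 443.3 and 520.2 CPM with formononetin and 595.3, 658.2 and 625.8 CPM in controls, a log2 fold change of -0.41 ± 0.07 (SE, edgeR adjusted p = 0.00695). FAU, which encodes a small subunit protein fused to a ubiquitin-like one, ranged from 96.5 to 108.7 CPM with formononetin and from 96 to 107.6 CPM in controls and was not called. Of 20 tested genes for translation factors and other proteins with TOP mRNAs, 5 fell and none rose, with a median log2 fold change of -0.13, where 8.71% of all tested genes and 23.1% of the other abundant genes fell. The largest fall was that of NACA, which guards nascent chains at the tunnel exit, with 137.5, 140.1 and 164.3 CPM in formononetin libraries and 194.6, 212.6 and 165.9 CPM in control libraries. NACA was called at an edgeR adjusted p of 0.0426, and the call was lost in 8 of the 20 other analyses, among them those without control replicate 1 or 2 and without formononetin replicate 1 or 2.

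Among 16 regulators of TOP mRNAs there were 4 rises and no fall, and the median was 0.10 on the log2 scale, where 12.0% of all tested genes and 27.7% of the other abundant genes rose. Both counts are near the shares of the abundant genes and are not read as results about these lists. Most of the 16 regulators lie below the mean log2 CPM of 7 that defines the abundant genes, so for them that share is an unlike comparison. The 4 that rose were RHEB, RPS6KB2, MTOR and EIF4EBP2, at mean log2 CPM of 4.91, 6.1, 7.57 and 6.99. RHEB, the GTPase that activates mTOR, had 31.8, 33.4 and 37.6 CPM with formononetin and 25.8, 24.1 and 28 CPM in controls, a log2 fold change of 0.40 ± 0.09 (SE, edgeR adjusted p = 0.0198). The call was lost without control replicate 1 or 2 and without formononetin replicate 3. Of the 10 chaperones and loaders of ribosomal proteins, the 3 called genes TSR2, NVL and HEATR3 all rose, and the list's median was 0.11 on the log2 scale, beside the same 12.0% of all tested genes that rose. TSR2, the chaperone that carries RPS26 to the assembling ribosome, had 28.3, 28.6 and 28.1 CPM with formononetin and 22.1, 21.2 and 21.8 CPM in controls. The groups were far apart, with a log2 fold change of 0.39 ± 0.06 (SE, edgeR adjusted p = 0.00432).

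Of the kinases on the list of ribosomal protein kinases, RPS6KA1 rose and RPS6KA3 fell. RPS6KA3, the more abundant, ranged from 545.3 to 584.3 CPM with formononetin and from 683.9 to 709.8 CPM in controls. Its log2 fold change was -0.31 ± 0.04 (SE, edgeR adjusted p = 0.00233). RPS6KB1, listed with the regulators of TOP mRNAs, was not called (edgeR adjusted p = 0.9). RPS6KA1, a kinase of RPS6 downstream of ERK, had 53.8, 55.9 and 56.1 CPM with formononetin and 37, 34.2 and 32.7 CPM in controls, a log2 fold change of 0.67 ± 0.06 (SE, edgeR adjusted p = 0.000636). MDM2 ranged from 303 to 318.6 CPM with formononetin and from 289 to 309.9 CPM in controls and was not called.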

How the data were processed

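The deposited table holds raw read counts per gene for 6 libraries of total RNA, prepared with a stranded mRNA kit per the labels' protocols. The submitters' processing notes name STAR 2.5.3a, StringTie 1.3.1c and GRCh38. Which program counted reads, whether it used strand, and on which gene models, is not given in the sources used here. Of 62729 rows, 2165 assembled loci without a gene identifier (3.82 to 5.62% of counts per library) were left out. Identifiers were matched to symbols by Ensembl number. Coordinates, exons and overlaps (at least 50 bases) came from GENCODE 29. Genes passing filterByExpr were fitted with edgeR 4.0.16 (TMM scaling, glmQLFit, glmQLFTest, R 4.3.3), two-sided, on all 6 libraries with no covariate. SE is the log2 fold change over the square root of F. The procedure was tested on simulated data.

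The alternatives were DESeq2 1.42.0, limma 3.58.1 voom, other scalings and filters, assembled loci kept, pseudogenes summed, a correction for GC and length, a replicate block and each library left out. Summing overlapping genes, leaving out RPS3 and 2 of the 3 length measures were added after values were seen. The members and lists were chosen with earlier results of these data known. Genes with values per library are the 5 lowest and 3 highest fold changes in each subunit, the stalk proteins, RPSA, RPL5, RPL11, RPS6, RPL22, RPL36A, RPL39, RPS27, tested paralogues and the gene with most counts in each subunit. Among related genes they are the largest called change per list and direction, with FAU and RACK1. Some genes that this rule names are not reported here.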

Additional observations from a re-analysis of the deposited data

How the results depend on the processing

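With upper quartile scaling, the subunit medians of log2 fold change were -0.305 (large) and -0.242 (small), and the sums differed by -18.4 and -13.1%. In that setting 1 small subunit gene was raised and 14 related genes were lowered, against 2 and 8 in the main analysis. Over all tested genes, more were then lowered and fewer raised than the 1937 and 2659 of the main analysis. More large and small subunit genes were lowered as well, so these counts shifted in the same direction as those of all genes. With library totals the medians were -0.183 and -0.121 and the sums differed by -11.2 and -5.50%. Without a low-count filter, 18 large subunit genes fell, against 28 in the main analysis. Over all genes, fewer were lowered in that setting too, and no share over all genes is given for it. With the GC and length correction the large subunit median was -0.281. Without RPS3 the small subunit sum differed by -10.4%. Median CPM per kilobase with the principal transcript length was 278.9 with formononetin and 332.6 in controls (large), and 425.3 with formononetin and 481.2 in controls (small). With the median coding transcript it was 390.9 with formononetin and 427.1 in controls (large), and 537.9 with formononetin and 566.2 in controls (small).

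Leaving out 1 library at a time gave 1703 to 2189 genes raised and 1272 to 1478 lowered, 17 to 24 large and 8 to 12 small subunit genes lowered, 1 to 2 small subunit genes raised, a small subunit median of -0.198 to -0.142 and 5 to 9 related genes raised. The cause of these shifts was not tested, beyond there being fewer libraries.

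The groups share replicate numbers, but same-numbered libraries did not deviate together (correlations of -0.022 to 0.009). With the replicate number as a block, 1921 genes rose and 1362 fell, 20 large and 10 small subunit genes fell and 2 small subunit genes rose, with medians of -0.227 and -0.164.

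The log2 fold change took the other sign in 1 or more alternatives for 9 genes, none of them called in the main analysis or in those alternatives. With limma voom, RPL3L was -0.005. With upper quartile scaling, RPL10 was -0.065, RPL15 was -0.055 and RPL3L was -0.067. With library totals, RPL26 was 0.038 and FAU was 0.032. When centred on the median gene, RPL26 was 0.006 and FAU was 0.001. Without a low-count filter, RPL26 was 0.017 and FAU was 0.013. With a minimum of 1 CPM in 3 libraries, RPL10 was -0.002 and RPL3L was -0.002. With assembled loci kept, RPL26 was 0.008 and FAU was 0.004. With the GC and length correction, RPL10 was -0.021 and RPL15 was -0.005. With the replicate block, RPL3L was -0.015. Leaving out 1 library at a time, the values ran for RPL26 from -0.066 to 0.029, RPL10 from -0.001 to 0.03, RPL15 from -0.075 to 0.129, RPLP0 from -0.209 to 0.017, RPL22 from -0.16 to 0.111, RPL36AL from -0.2 to 0.013, RPL3L from -0.202 to 0.187, RPL7L1 from -0.208 to 0.027 and FAU from -0.072 to 0.031.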
